A study of Mus musculus with 12 samples.

Results

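The data compared here were gene expression values from RNA sequencing of the mouse T cell leukemia line 8946, and the question was what a mutant Notch1 changed in cells that already carried added Zmiz1. Cells had received a pair of retroviral vectors: MigR1, empty or carrying the Notch1 mutant L1601P with GFP, and NGFR, empty or carrying Zmiz1 with the surface marker NGFR. GFP+/NGFR+ cells were then sorted, and mRNA libraries that do not mark strand were made from their RNA. The comparison set 3 libraries titled Notch1+Zmiz1 (L1601P and Zmiz1) against 3 libraries titled Zmiz1 (Zmiz1, with no L1601P according to the title), so both sides carried the Zmiz1 vector, and the added agent was L1601P. These are 6 of the 12 libraries. The other 6 were 3 control libraries (both vectors empty) and 3 libraries titled Notch1 (L1601P with the empty NGFR vector). The members were the 10152 of 23284 gene symbols with a mean of at least 1 FPKM (fragment counts scaled by transcript length and by the mapped total) over the 12 libraries.

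For the groups with 1 loaded vector, title and cell line label disagree. The title Zmiz1 comes with a cell line label that names L1601P and the empty NGFR vector, and the title Notch1 with one that names MigR1 and Zmiz1. Groups here follow the titles and the column headers, which name the same vector. The levels of Notch1 and Zmiz1 in the Zmiz1 libraries, given below, go with them. Notch1 levels in the Notch1 and control libraries are not given here. Whether replicates were transduced or grown separately is not stated, so the p values rest on the spread among libraries, which may be technical. All libraries came from 1 leukemia line with vector-driven expression.

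Notch1 is a receptor whose cleaved intracellular part enters the nucleus, binds the factor RBPJ and switches on genes that early T cells need. L1601P lies in the part of the receptor that normally holds the inactive form together, and such mutations occur in T cell leukemia. Zmiz1 is a coactivator related to the PIAS proteins. The unfolded protein response raises chaperones and folding enzymes of the endoplasmic reticulum (ER) through the factors Xbp1 and Atf6, and its arm through Atf4 raises genes of amino acid supply.

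Notch1 (chromosome 2, 26457903 to 26516663, GRCm38) was at 2.04, 1.92 and 2.34 FPKM in the Zmiz1 libraries and at 33.5, 36.2 and 37.2 FPKM in the Notch1+Zmiz1 libraries, a log2 fold change of 3.56 ± 0.17 (SE, limma adjusted p = 9.03e-07). Zmiz1 (chromosome 14, 25459185 to 25666743), carried by the vector on both sides, was at 70.3, 67.7 and 74.4 FPKM without and at 47.6, 49.3 and 51 FPKM with the mutant, and control libraries held 0.17 to 0.18 FPKM. It fell by 0.51 on the log2 scale (limma adjusted p = 3.12e-04), and under quantile normalization the adjusted p was 0.0503. The groups therefore differed in Notch1, which did not overlap between them, and also in the amount of Zmiz1 transcript, which did not overlap either. The part of the lower Zmiz1 level in the results below was not tested. Ngfr, the mouse gene with the name of the surface marker used in the sort, averaged 7.43 ± 0.248 and 5.64 ± 0.0183 FPKM (mean ± SD, n = 3 a group, here and below) and was not called (-0.34, limma adjusted p = 0.0575). Whether its reads came from the vector was not tested. Ngfr was called lower with a pseudocount of 0.1 (0.0349), median ratio scaling (0.0312), quantile normalization (0.0296) or the replicate block (0.0317), and without Notch1 replicate 1 (0.00468) or 3 (0.0337).

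FPKM summed to 549098 to 606908 in the 12 libraries, with 14233 to 14554 genes detected. The files held no counts, so depth is known only in relative terms, from 0.767 (Zmiz1 replicate 2) to 1.18. This library was also the one least like the others, with a mean correlation of 0.942 to them, where the highest was 0.957. The labelled cell type was present: none of 12 T cell markers stayed under 1 FPKM throughout, with summed levels of 5717 to 6557 FPKM in Zmiz1 and 6510 to 6882 FPKM in Notch1+Zmiz1 libraries. Of 9 B cell markers 8 stayed under 1 FPKM in these 6 libraries, and 3 were listed at 0, among them Ms4a1 and Pax5. All 7 natural killer cell markers stayed under 1 FPKM, and Ncr1, Klrk1, Klrd1 and Klrc1 were listed at 0. Early progenitor markers, 6 of 7 under 1 FPKM, summed to 16.6 to 27 FPKM in Zmiz1 and 15.7 to 20 FPKM in Notch1+Zmiz1 libraries. Erythroid and megakaryocyte markers, 7 of 8 under 1 FPKM, summed to 1.83 to 2.9 FPKM and 2.71 to 3.21 FPKM. Myeloid markers summed to 93.8 to 101.6 FPKM and 61.1 to 63.4 FPKM. Of 12 such markers 10 were under 1 FPKM and Lyz1, Elane, S100a8 and S100a9 were listed at 0. Nearly all of the sum was Itgam, an integrin chain, which fell by 0.67 (limma adjusted p = 1.19e-04). Stromal markers summed to 80.8 to 84.8 FPKM in Zmiz1 and 65.8 to 70.7 FPKM in Notch1+Zmiz1 libraries. Of 10 such markers 9 were under 1 FPKM and Col3a1, Dcn, Lum, Cdh5 and Epcam were listed at 0. Nearly all of this sum was Vim, an intermediate filament gene named after its values were seen, which fell by 0.27 (limma adjusted p = 0.0443). The part of these markers in the results was not tested. In such bulk samples fewer cells of a type and less RNA per cell cannot be told apart.

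With the mutant added, 392 genes were called at a limma adjusted p under 0.05, which is 3.86% of the genes tested: 271 rose (2.67%) and 121 fell (1.19%). The log2 fold changes, here and below, are on the scale of log2(FPKM + 1), which understates the change of genes near or under 1 FPKM. Among the called genes the median change was 0.47 for those that rose and -0.44 for those that fell, and 36 rose and 3 fell by more than 2-fold. Groups did not overlap for any called gene, while over all genes tested 13.5% were higher without overlap and 7.54% were lower. Median ratio scaling of the libraries turned the split to 228 higher and 159 lower. The number of calls depended on single libraries, most on those of Notch1+Zmiz1: 250 genes were called without replicate 1, 187 without replicate 2 and 184 without replicate 3. It was 299 without Zmiz1 replicate 1. Libraries outside the comparison, which enter the shared estimate of spread, moved it too: 280 without control replicate 2 and 505 without Notch1 replicate 3. With 3 libraries a side, 0.1 is the smallest p that exact permutation allows, so the calls lean on limma's pooling of variance between genes. With only the 6 libraries compared in the fit, 155 genes were called; of the genes named below, those that then lost their call were Mettl1, Ccr9, Wfs1, Atf6, Dapl1, Ppap2b, Prkaa2, Actn2, Ccnd3, Trib3, Gars, Iars, Hspa9, Wdr12, Dkc1, Gart, Pgam1, H2-T24, Alg12, Syvn1, Slc1a4 and Cth (adjusted p from 0.05 to 0.193).

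The same mutant in cells without the Zmiz1 vector (Notch1 against control libraries, which share no library with the comparison above) called 557 genes, 5.49% of those tested, with 3.19% higher and 2.3% lower. Of the 271 genes that rose with Zmiz1 present, 163 (60.1%) also rose without it, which is 50.3% of the 324 that rose there. Of the 121 that fell, 83 (68.6%) also fell without it, which is 35.6% of 233. Of 703 genes called in at least 1 of the comparisons, 0 were called in opposite directions. In the plot of the effect with against the effect without Zmiz1, most called genes lay near the line of equal change.

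**Figure D1:**
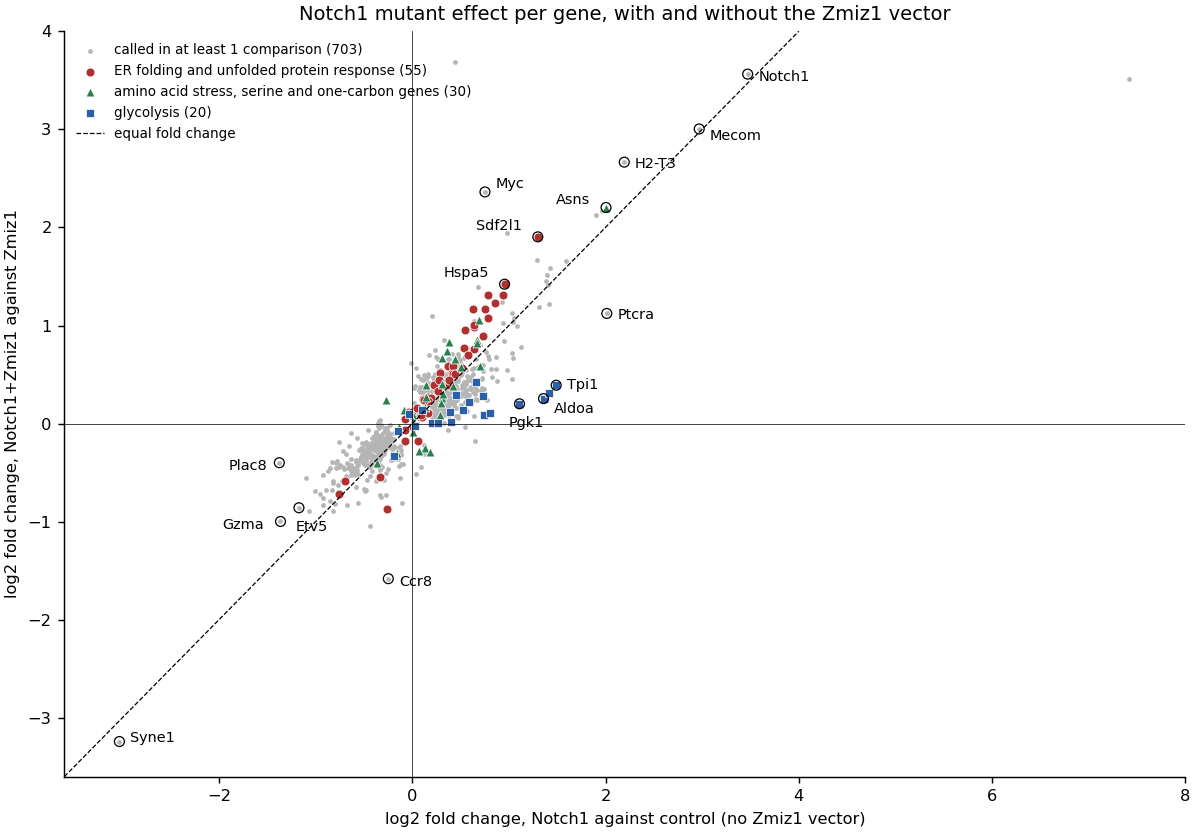
Each point is 1 of the 703 genes called in at least 1 of the 2 comparisons or a member of the 3 coloured lists. The x axis is the log2 fold change of Notch1 against control libraries, the y axis that of Notch1+Zmiz1 against Zmiz1 libraries, and the dashed line marks equal change. Genes of the ER list lie mostly above the line, while Aldoa, Tpi1 and Pgk1 lie far below it and Myc far above it. Myc was under 1 FPKM in control, Notch1 and Zmiz1 libraries, where the log2(FPKM + 1) scale understates changes. The uncircled grey points farthest from the rest are short noncoding RNA genes, which the rule for named genes passes over.

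The gene list with the most members called was that of ER protein folding and the unfolded protein response: 27 of 55 tested members rose (49.1%) and 2 fell, with a median log2 fold change of 0.40 against 0.02 over all genes. Next came the aminoacyl-tRNA synthetases, 10 of 23 (43.5%), and the genes of amino acid stress, serine and one-carbon metabolism, 13 of 30 (43.3%). Each of these shares was above the 2.67% of all genes tested that rose. The lists and their members were chosen with earlier results of these data known, which can favour high shares. Lists with no member called in either direction included DNA replication (39 genes), mitosis (33 genes) and the respiratory chain (33 genes). In the limma fit an unadjusted p under 0.05 was reached by 8, 0 and 4 of their members, and by 1604 of all 10152 genes (15.8%). With the replicate block 4 DNA replication genes were called higher. Without Zmiz1 replicate 2, 2 DNA replication genes were called higher.

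**Figure D2:**
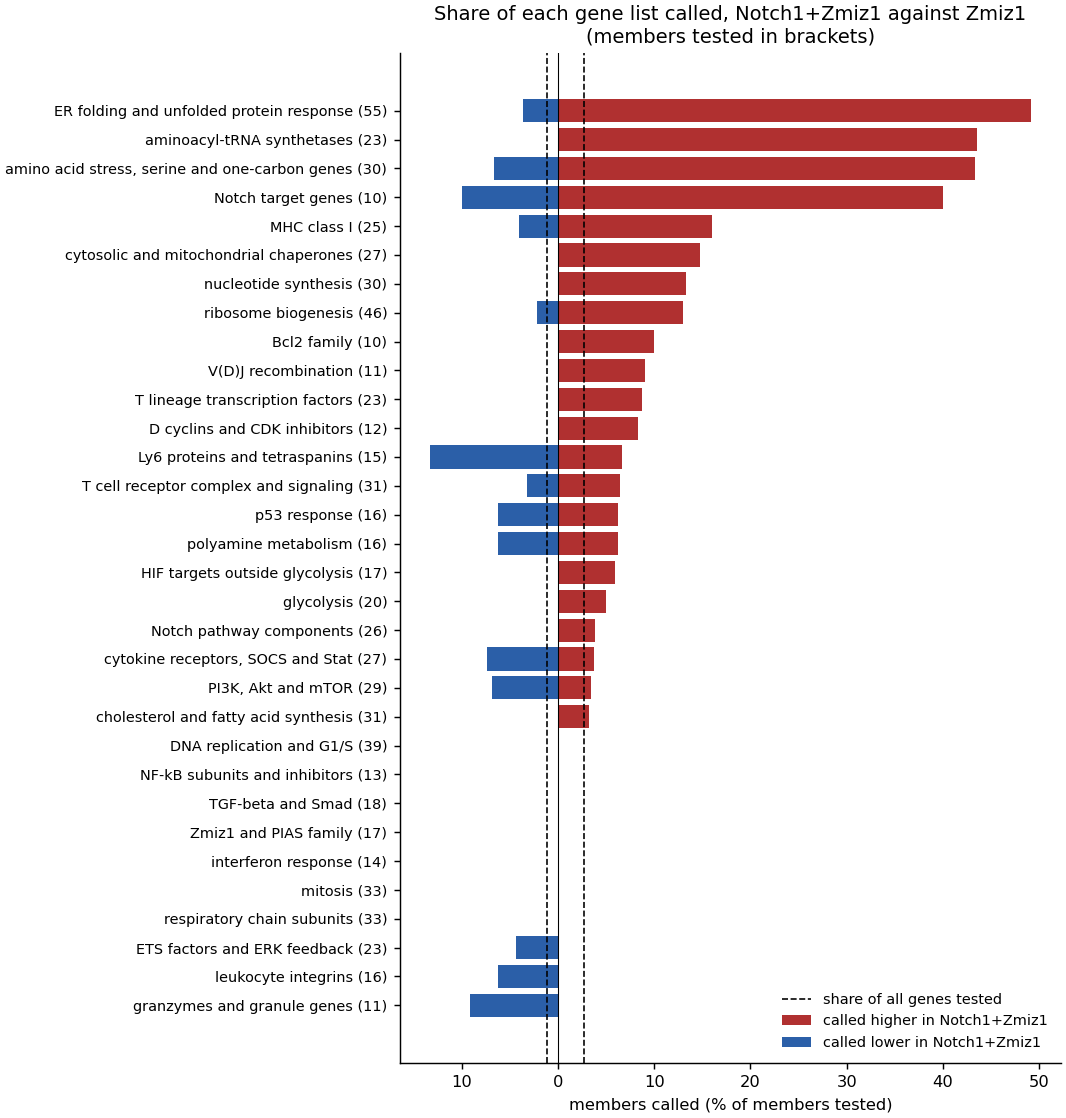
Bars give the share of each list's tested members called higher (right, red) or lower (left, blue) in Notch1+Zmiz1 than in Zmiz1 libraries, in percent, with the number of members tested in brackets. Dashed lines mark the share of all genes tested, 2.67% higher and 1.19% lower, and the 3 longest red bars are ER folding, aminoacyl-tRNA synthetases and amino acid genes.

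ER chaperones formed the largest block of rising genes. Some of their promoters carry the ER stress element, the sequence through which Atf6 and Xbp1 are known to act, so the matches are shown before the levels. The element was searched as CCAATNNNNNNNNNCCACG on both strands in RefSeq promoter sequences (GRCm38.p6, 250 bases before to 50 after the start). It was present in 39 of 32851 promoters (0.119%) and in 16 of the 8016 tested genes with a promoter in the table (0.2%). Of the 27 ER genes that rose, 23 had a promoter there, and 9 of the 23 (39.1%) held the element. Of the 28 that did not rise, 22 had a promoter, under 80%, so the share for them is void. The 8016 genes were 79.0% of those tested, also under 80%, so the 0.2% holds only for tested genes with a promoter there. The windows below run 5′ to 3′ on the strand of the gene, with 14 bases before and 15 after the match, and capitals mark the match. A match is a description of the sequence and does not show that a factor binds there.
Hspa5, chr2:34772011-34772058, plus strand: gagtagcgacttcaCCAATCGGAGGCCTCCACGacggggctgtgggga
Hsp90b1, chr10:86705623-86705670, minus strand: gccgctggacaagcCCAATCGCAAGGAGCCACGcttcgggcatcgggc
Hsp90b1, chr10:86705518-86705565, minus strand: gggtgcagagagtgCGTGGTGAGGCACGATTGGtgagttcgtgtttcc
Pdia6, chr12:17266477-17266524, plus strand: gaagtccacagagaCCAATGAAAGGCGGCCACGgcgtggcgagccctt
Creld2, chr15:88819506-88819553, plus strand: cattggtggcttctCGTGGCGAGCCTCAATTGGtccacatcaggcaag
Calr, chr8:84847060-84847107, minus strand: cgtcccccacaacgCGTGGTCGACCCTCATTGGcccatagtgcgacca
Canx, chr11:50325785-50325832, minus strand: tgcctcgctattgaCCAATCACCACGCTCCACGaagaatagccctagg
Dnajc3, chr14:118937813-118937860, plus strand: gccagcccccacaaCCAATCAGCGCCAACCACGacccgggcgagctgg
Ero1lb, chr13:12565668-12565715, plus strand: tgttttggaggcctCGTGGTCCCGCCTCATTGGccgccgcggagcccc
Syvn1, chr19:6046518-6046565, plus strand: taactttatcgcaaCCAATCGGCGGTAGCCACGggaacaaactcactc

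The 10 windows belong to 9 genes, since Hsp90b1 held the element at 2 places, and the first base of the match lay between 212 and 44 bases before the start site that the RefSeq table uses. GENCODE places the start of Hspa5 farther upstream, so its window lies inside the gene span given below. In Hsp90b1 (second window), Calr, Creld2 and Ero1lb the element read on the opposite strand. Among the 16 tested genes with the element, 10 rose, 0 fell and 6 were not called, against 2.67% of all genes tested that rose. The genes with the element outside the ER list were Alg12, a mannosyltransferase of the ER, and Spats2l, Xlr3a, Hnrnpa3, Pan2, Xlr3b and Adcy3, which were not called. Alg12 rose by 0.51 (limma adjusted p = 0.0322), a call lost without control replicate 1 (0.0527), 2 (0.058) or 3 (0.0572) and without Notch1+Zmiz1 replicate 1 (0.0863), 2 (0.107) or 3 (0.136). These genes were named after their values were seen.

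Hspa5 (chromosome 2, 34771970 to 34777547), the main Hsp70 chaperone of the ER lumen, was at 165.4, 119.5 and 164.3 FPKM in Zmiz1 and at 389.2, 403.9 and 402 FPKM in Notch1+Zmiz1 libraries, a log2 fold change of 1.42 ± 0.10 (limma adjusted p = 2.07e-05). Sdf2l1 (chromosome 16, 17130138 to 17132383), a partner of ER Hsp70 complexes, was at 16.8, 13.1 and 19.5 FPKM and at 62.9, 64.6 and 63.3 FPKM, 3.86-fold higher by the group means (1.90, limma adjusted p = 4.46e-06). For both genes the lowest library was Zmiz1 replicate 2, and the highest Zmiz1 library lay far under the lowest Notch1+Zmiz1 library. Hyou1, an ER chaperone of the Hsp110 family, was at 28.7, 29.6 and 33 FPKM and at 70.8, 79.4 and 80.2 FPKM (1.31, limma adjusted p = 4.46e-06). Hsp90b1, the ER form of Hsp90, was at 159.4, 130.9 and 163.5 FPKM and at 320.4, 339.9 and 359.8 FPKM (1.17, limma adjusted p = 1.31e-05). The other chaperones that rose were Creld2 (1.23) and Manf (1.07), small secreted ER stress proteins, and the J-domain cochaperones Dnajc3 (0.76) and Dnajb11 (0.59).

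Disulfide isomerases and related oxidoreductases, which form and rearrange disulfide bonds in the ER, made up 8 of the 27, a grouping made after the values were seen. Pdia6 was at 87.5, 73.7 and 89.8 FPKM in Zmiz1 and at 200.5, 216.2 and 210.3 FPKM in Notch1+Zmiz1 libraries (1.31, limma adjusted p = 2.78e-06). Pdia4 was at 22.9, 17.7 and 23.6 FPKM and at 46.1, 50.6 and 50.4 FPKM (1.17, limma adjusted p = 4.17e-05). In both, every Notch1+Zmiz1 library was well above every Zmiz1 library. Pdia5 (0.98), the ER oxidase Ero1lb (0.77), Txndc5 (0.70), Pdia3 (0.59), Txndc11 (0.57) and P4hb (0.52) were the others. The lectin chaperones of glycoproteins rose too: Calr from 239, 226 and 257 FPKM to 432, 500 and 470 FPKM (0.95, limma adjusted p = 3.91e-05) and Canx by 0.54 (adjusted p = 0.0090). Of the ER members named here, Pdia3, Pdia5, P4hb, Txndc5, Txndc11, Ero1lb, Dnajc3, Dnajb11, Calr, Canx and those of the next paragraph were chosen after their values were seen.

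Other steps of the ER pathway also changed. Sec61a1, the channel subunit of the translocon, rose by 0.51 (limma adjusted p = 7.4e-04). Herpud1, which takes part in the disposal of misfolded proteins, went from 31.7, 22.5 and 32.8 FPKM to 58.6, 58.3 and 58.6 FPKM (1.01, adjusted p = 5.17e-04). Syvn1, the ubiquitin ligase of that disposal, rose by 0.34 (adjusted p = 0.0103), a call lost without Notch1+Zmiz1 replicate 3 (0.0607). The sensors and factors did not move as 1 block. Xbp1, the transcription factor activated by Ern1, was at 63.9, 55.1 and 64 FPKM in Zmiz1 and near 114 FPKM in each Notch1+Zmiz1 library (0.90, adjusted p = 2.65e-05). Atf6, the membrane-held factor of the second arm, went the other way, from 26.7, 31.8 and 24.9 FPKM to 18.3, 18 and 18 FPKM, and fell by 0.59 (adjusted p = 0.00471). Wfs1, an ER membrane protein, also fell, from 5.13, 8.67 and 5.5 FPKM to 2.92, 3.08 and 2.91 FPKM (-0.87, adjusted p = 0.00621). The sensor Ern1 was at -0.72 (adjusted p = 0.0879) and the sensor Eif2ak3 at 0.10 (adjusted p = 0.493), both not called. Ern1 was called lower with the replicate block (0.044) and without Notch1 replicate 3 (0.0324).

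Leaving out any 1 library left between 24 and 29 ER members called higher, and 26 without Zmiz1 replicate 2. Without the Zmiz1 vector, 24 of the 27 genes also rose with the mutant. The change with Zmiz1 minus that without it was positive in 46 of the 55 tested ER members, against 50.2% of all genes. None was called in limma's test of the difference, where 12 of 55 had an unadjusted p under 0.05, against 3.27% of all genes tested. For Hyou1 the difference was 0.53 (adjusted p = 0.366), and for Sdf2l1 it was 0.60 (adjusted p = 0.923). In 17 of the 27 every Notch1+Zmiz1 library lay above every library of the other 3 groups, as in 1.6% of all genes tested, though the 27 were chosen as higher than the Zmiz1 libraries. In 25 of the 27 the Zmiz1 libraries overlapped the control libraries, as they did in 82.1% of all genes tested.

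**Figure D3:**
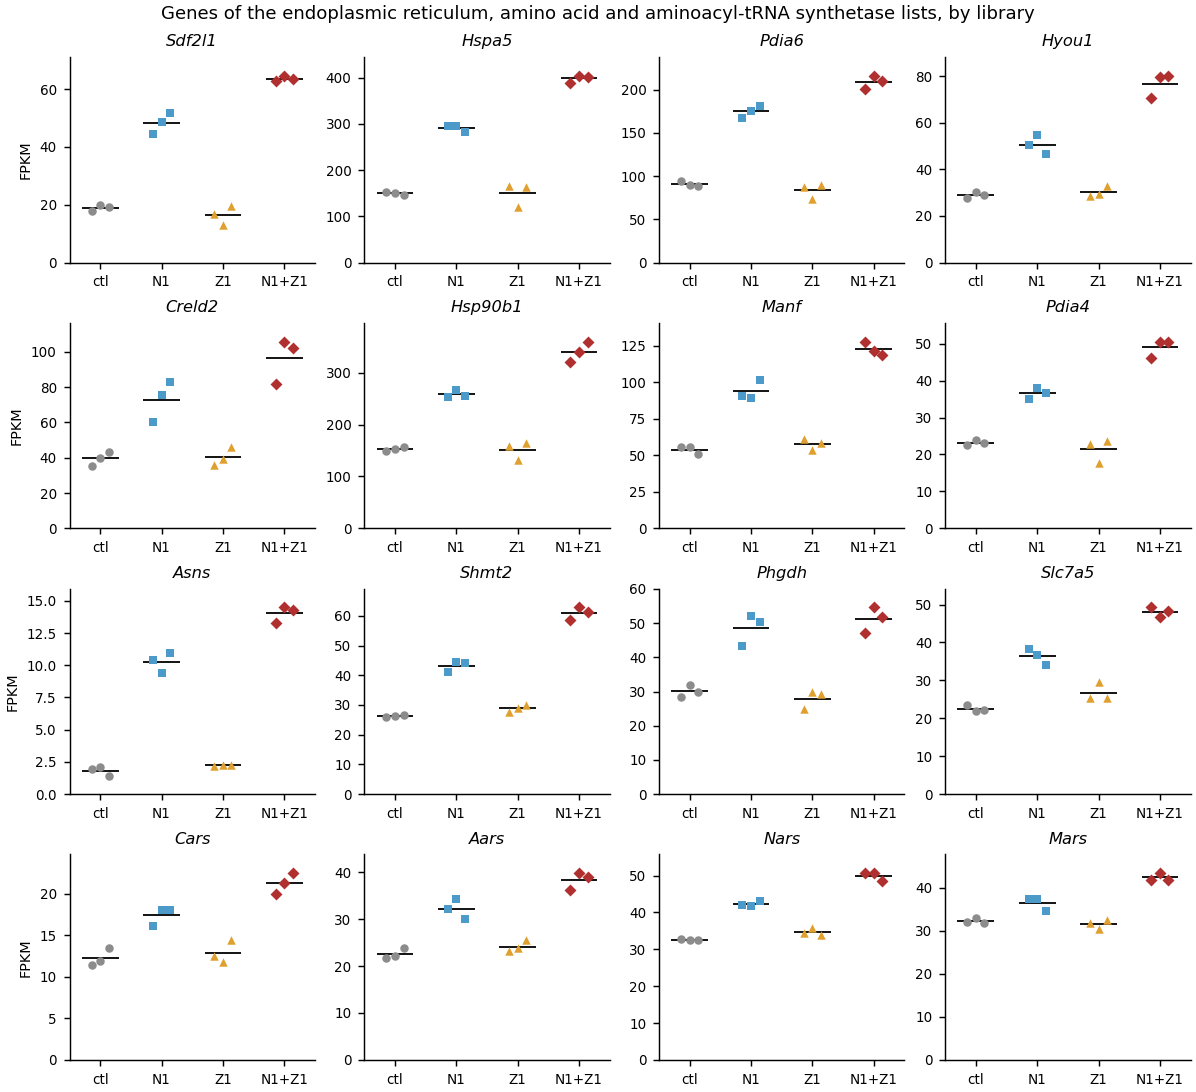
Each panel gives 1 gene's FPKM in every library, with bars at the group means: control (ctl), Notch1 (N1), Zmiz1 (Z1) and Notch1+Zmiz1 (N1+Z1), 3 libraries each. The y axes start at 0, the Notch1+Zmiz1 libraries have the highest group mean in every panel, and Hspa5 reaches 403.9 FPKM there.

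Genes of amino acid supply rose alongside. Asns (chromosome 6, 7675169 to 7693254), which makes asparagine, was at 2.21, 2.29 and 2.3 FPKM in Zmiz1 and at 13.3, 14.5 and 14.3 FPKM in Notch1+Zmiz1 libraries, 6.2-fold higher by the means (log2 fold change 2.20, limma adjusted p = 6.48e-07). The groups were tight and far apart. Shmt2, the mitochondrial serine hydroxymethyltransferase, was at 27.5, 29 and 29.9 FPKM and at 58.6, 62.8 and 61.4 FPKM (1.05, adjusted p = 1.42e-06). Phgdh, the first enzyme of serine synthesis, was at 24.9, 29.7 and 29.2 FPKM and at 47, 54.6 and 51.9 FPKM (0.85, adjusted p = 4.28e-04). As in every called gene, the groups did not overlap in these. Further along the same routes Psat1 (0.58) and Mthfd2 (0.59), chosen after their values were seen, also rose. The amino acid transporter Slc7a5 rose by 0.82, Aldh18a1 of proline synthesis by 0.83 and the alanine aminotransferase Gpt2 by 0.67.

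Atf4, the transcription factor of this response, was at 81, 81.7 and 81.6 FPKM in Zmiz1 and at 94.8, 101 and 98.5 FPKM in Notch1+Zmiz1 libraries without overlap, but was not called (0.27, limma adjusted p = 0.0545). It was called under the replicate block (0.0249), under quantile normalization (0.0497) and without Notch1 replicate 3 (0.0093). Ddit3, another gene of the stress response, was at 0.09 (adjusted p = 0.86). Both were chosen after their values were seen. Trib3, a pseudokinase of the same response, rose by 0.74 (adjusted p = 0.0163), a call lost without Notch1+Zmiz1 replicate 2 (0.0855) or 3 (0.0554). The count of amino acid genes that rose, 13, was 8 without Notch1+Zmiz1 replicate 2 and 8 without replicate 3. The transporter Slc1a4 (-0.40, adjusted p = 0.0458) and Cth of cysteine synthesis (-0.30, adjusted p = 0.0203) fell. That count of 2 was 0 without Zmiz1 replicate 1 or Notch1+Zmiz1 replicate 2 or 3, and 1 without any 1 control library, Zmiz1 replicate 2, Notch1 replicate 1 or 2 or Notch1+Zmiz1 replicate 1. Of these 13, 7 also rose without the Zmiz1 vector. The list's median was 0.27 here and 0.29 there.

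The 10 aminoacyl-tRNA synthetase genes that rose, whose products load amino acids onto tRNA, changed less each. Cars, for cysteine, was at 12.6, 11.8 and 14.4 FPKM in Zmiz1 and at 20, 21.4 and 22.5 FPKM in Notch1+Zmiz1 libraries (0.68, limma adjusted p = 0.00128). Aars, for alanine, was at 23.1, 23.7 and 25.6 FPKM and at 36.2, 39.8 and 39 FPKM (0.64, adjusted p = 3.61e-04). Nars (0.51), Gars (0.42), Iars (0.42) and Mars (0.41) rose as well. In these 6, as in every called gene, the groups did not overlap. The list's median was 0.25, and 20 of 23 members were positive, against 5583 of all 10152 genes tested. Of the 10, 7 also rose without the Zmiz1 vector. When only the 6 libraries compared entered the fit, 5 of the 10 were called. Kars, the most abundant member not called, was at 0.10 (adjusted p = 0.477).

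A short element bound by C/EBP and ATF family proteins, TGATGNAA on either strand, is the sequence through which Atf4 is known to act. It was present in 3.97% of all promoters in the RefSeq table. Among the 8016 tested genes with a promoter there, 79.0% of those tested and so also under 80%, 210 (2.62%) held it. Promoters there covered 10 of the 13 amino acid genes and 6 of the 10 synthetase genes that rose, both under 80%, so no share is given for them. Of the 17 tested amino acid genes that did not rise, 16 had a promoter, and 3 of the 16 (18.8%) held the element. Among amino acid genes it was therefore not particular to those that rose. Of the 13 synthetase genes that did not rise, 10 had a promoter, under 80%, so no share is given for them either. The matches before the RefSeq start in the amino acid and synthetase genes that rose are shown with 20 bases on each side and the element in capitals (GRCm38.p6, 5′ to 3′ on the strand of the gene).
Asns, chr6:7693205-7693252, minus strand: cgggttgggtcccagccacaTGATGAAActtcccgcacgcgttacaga
Aars, chr8:111033710-111033757, plus strand: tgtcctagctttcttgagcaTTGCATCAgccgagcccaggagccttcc
Gars, chr6:55037951-55037998, plus strand: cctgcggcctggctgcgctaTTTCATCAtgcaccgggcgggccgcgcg
The first base of the match lay 23 bases before the start site of the RefSeq table in Asns, 112 in Aars and 30 in Gars. For Asns and Aars the GENCODE gene starts farther upstream and contains the window. Matches after the RefSeq start, in Trib3, Iars, Yars and a further one in Aars, are not shown, nor are those of the ER genes Herpud1 and Txndc5. In Asns the element read along the gene and in the other two on the opposite strand.

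Known Notch target genes gave a mixed picture: of 10 tested, 4 rose and 1 fell, against 2.67% and 1.19% of all genes tested. Myc (chromosome 15, 61985391 to 61990374), a growth-promoting transcription factor, was at 0.285, 0.61 and 0.499 FPKM in Zmiz1 and at 5.91, 6.76 and 6.87 FPKM in Notch1+Zmiz1 libraries, 14-fold higher by the means (log2 fold change 2.36, limma adjusted p = 6.48e-07). Ptcra, the alpha chain of the pre-T cell receptor, was at 0.286, 0.602 and 0.466 FPKM and at 2.28, 2.22 and 1.96 FPKM (1.12, adjusted p = 4.28e-04). Every Notch1+Zmiz1 library was above every Zmiz1 library in both, as in every called gene that rose. The Notch1 libraries, without the Zmiz1 vector, stood between for Myc (0.721, 0.811 and 0.887 FPKM) and above both groups for Ptcra (4.37, 5.65 and 5.85 FPKM). Trib2, a pseudokinase, was at 10.6, 7.33 and 8.75 FPKM and at 19.7, 18.8 and 18.8 FPKM (1.04, adjusted p = 2.43e-04).

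Ccnd3, a D cyclin, went from 610.6 ± 41.5 to 748.1 ± 5.11 FPKM (0.29, limma adjusted p = 0.0149). That call was lost under quantile normalization (0.0665) and without Zmiz1 replicate 1 (0.0564) or 3 (0.0547) or Notch1+Zmiz1 replicate 1 (0.0598), 2 (0.0678) or 3 (0.065). Il7r, the interleukin 7 receptor chain, went from 128.8, 140.3 and 117.3 FPKM to 87.5, 81.3 and 83.4 FPKM and fell by 0.61 (adjusted p = 0.0014). Without Zmiz1 replicate 3, 2 members of the list were called lower. Lef1 (0.12), Tcf7 (0.07) and Gata3 (-0.46) were not called (adjusted p = 0.442, 0.658 and 0.0733). Hes1, a classical Notch target, was listed at 0 in all 12 libraries.

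Below the filter of 1 FPKM, Dtx1 and Notch3 were tested in the fit of all 16835 genes above 0 in some library, where 2.55% were called. Dtx1, a ubiquitin ligase of the Notch pathway, was at 0.00778, 0 and 0.0168 FPKM in Zmiz1 and at 0.545, 0.515 and 0.663 FPKM in Notch1+Zmiz1 libraries (0.64, limma adjusted p = 1.4e-04). Notch3, itself a Notch receptor and target, was at 0.0486, 0.0445 and 0.0344 FPKM and at 0.428, 0.33 and 0.443 FPKM (0.42, adjusted p = 0.0236). Both were higher still in the Notch1 libraries, at 1.48, 1.9 and 1.83 FPKM and at 1.63, 1.94 and 1.22 FPKM, and in this fit the effect of the mutant was smaller with the Zmiz1 vector by 0.81 for Dtx1 (difference -0.81, adjusted p = 0.00262) and by 0.85 for Notch3 (difference -0.85, adjusted p = 0.031). The differences of Dtx1 and Notch3 were not checked under the alternatives. The call of the Notch3 rise from Zmiz1 to Notch1+Zmiz1 libraries (0.42) was lost without Zmiz1 replicate 1 (0.0702), 2 (0.0602) or 3 (0.071). It was also lost without Notch1+Zmiz1 replicate 1 (0.0893), 2 (0.0565) or 3 (0.104). Nrarp (0.05, adjusted p = 0.795) and Il2ra (0.15, adjusted p = 0.292), also known targets, were not called. Il2ra was called higher without Zmiz1 replicate 2 (0.0433).

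Outside these lists, Mecom had the largest rise of the named genes after Notch1. Mecom (chromosome 3, 29951296 to 30548008), a zinc finger transcription factor, was at 0.796, 0.658 and 0.441 FPKM in Zmiz1 and at 11.9, 11.7 and 12.6 FPKM in Notch1+Zmiz1 libraries (3.00, limma adjusted p = 1.66e-08). It was at 10.9, 11.7 and 10.7 FPKM in Notch1 libraries, so its level with the mutant was about the same with and without the Zmiz1 vector (difference 0.03, adjusted p = 0.999). Among nonclassical MHC class I genes of chromosome 17, H2-T3 was at 8.21, 7.13 and 9.66 FPKM and at 51.3, 61.1 and 61.7 FPKM (2.67, adjusted p = 8.4e-07). H2-T22 (2.17), H2-Bl (2.13) and H2-T10 (1.66) also rose, and their groups did not overlap, which was a condition for naming the largest rises. The other tested members of the MHC class I list did not rise: of 25, 4 rose and 1 fell, H2-T24 (-0.43, adjusted p = 0.0070), against 2.67% and 1.19% of all genes tested. When Zmiz1 replicate 1 was left out, 2 members were called lower. H2-Q1 (-0.15), H2-Q2 (-0.22) and B2m (0.21), the most abundant members, were not called (adjusted p = 0.434, 0.469 and 0.314). Genes of this family are near copies of each other, and how reads shared between them were assigned is not stated, so the values of single members are uncertain.

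The rest of the 20 largest rises came from several pathways. Aldh1b1, a mitochondrial aldehyde dehydrogenase, rose by 1.67 (from 0.541, 0.273 and 0.479 to 3.02, 3.73 and 3.94 FPKM). Ly6d, a surface protein of lymphocytes, rose by 1.51 (from 10.1, 9.58 and 12.2 to 31.1, 34.4 and 30.6 FPKM). Sec24d, a coat protein of vesicles leaving the ER, rose by 1.24 (from 1.87, 1.71 and 1.78 to 5.29, 5.35 and 6.07 FPKM). Their limma adjusted p were 5.13e-06, 4.17e-05 and 2.78e-06. That their groups did not overlap was a condition for the choice of the 20. Cox6a2 (1.58), a subunit form of cytochrome oxidase known from muscle, Dennd2d (1.46), Spsb4 (1.42) and the tRNA methyltransferase Mettl1 (1.39) were further such genes. Snhg9, a small nucleolar RNA host, was listed at 0 in the Zmiz1 libraries and at 4.4, 1.6 and 3.03 FPKM in Notch1+Zmiz1 libraries (adjusted p = 0.013), a call lost without Notch1+Zmiz1 replicate 1 (0.055) or 3 (0.0598). Of the 20, 18 also rose without the Zmiz1 vector, and Snhg9 and Mettl1 were not called there.

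Growth-related lists shifted by less. Over all genes tested 5583 of 10152 were positive, 2.67% rose and 1.19% fell. In ribosome biogenesis 41 of 46 members were positive, with a median of 0.17, and 6 rose while 1, Wdr12 (-0.48), fell. The count of 6 was 1 without any 1 of the Notch1+Zmiz1 libraries, 2 without control replicate 2 or 3 or Zmiz1 replicate 1, 3 without control replicate 1, Zmiz1 replicate 3 or Notch1 replicate 2, and 10 without Notch1 replicate 3. It was 0 with only the groups compared, where Wdr12 was not called either, and 12 with the replicate block. Dkc1, the pseudouridine synthase of small nucleolar RNA particles, was called without each library in turn and rose by 0.34 (limma adjusted p = 0.00317). In nucleotide synthesis 27 of 30 were positive and 4 rose, 7 without Zmiz1 replicate 2, 2 without Notch1+Zmiz1 replicate 3, 2 with only the groups compared and 10 with the replicate block. Cad, the first enzyme of pyrimidine synthesis, was at 7.39, 6.78 and 7.78 FPKM and at 11.8, 12.6 and 11.8 FPKM (0.66, adjusted p = 0.00153), and Gart of purine synthesis rose by 0.36 (adjusted p = 0.00725). Srm, the spermidine synthase, was at 1.98, 2.89 and 2.97 FPKM and at 5.93, 6.93 and 6.43 FPKM (1.05, adjusted p = 0.00109). Among chaperones of the cytosol and mitochondria 4 of 27 rose; the count was 1 without any 1 control library, Zmiz1 replicate 1 or Notch1+Zmiz1 replicate 2 or 3, and 2 without Zmiz1 replicate 2 or 3 or Notch1+Zmiz1 replicate 1. It was 0 with only the groups compared and 2 under quantile normalization. Hspa9, the mitochondrial Hsp70, rose by 0.31 (adjusted p = 0.0068) and was called without each library in turn. Median changes were 0.09 for DNA replication, -0.03 for mitosis and 0.09 for the respiratory chain.

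The genes that fell included receptors and effectors of T cells. Syne1 (chromosome 10, 5020917 to 5551482), a large protein of the nuclear envelope, had the largest fall of the genes called, from 6.46, 13.5 and 7.71 FPKM in Zmiz1 to 0.055, 0.0286 and 0.0271 FPKM in Notch1+Zmiz1 libraries (log2 fold change -3.24, limma adjusted p = 4.58e-06). It was about as low in Notch1 libraries, at 0.042, 0.0159 and 0.0116 FPKM. Gzma (chromosome 13, 113093825 to 113100981), a protease of cytotoxic granules, was at 2379, 2120 and 2262 FPKM and at 1144, 1153 and 1085 FPKM, a mean of 2254 ± 129.7 against 1127 ± 36.7 FPKM (adjusted p = 4.06e-05). Etv5, an ETS factor, was at 179.7, 185.4 and 173 FPKM and at 103.4, 94.5 and 97.8 FPKM (-0.86, adjusted p = 8.52e-06). In each of these genes the groups lay wide apart. The chemokine receptors Ccr8 (-1.58) and Ccr9 (-0.89), the surface protein Ly6c1 (-0.89), Insl5 (-0.88), an insulin-like peptide, and the membrane protein Itm2a (-0.83) also fell. Lcp2, an adaptor of T cell receptor signaling, fell by 0.43 (adjusted p = 5.77e-04).

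Most of these genes were higher in the Zmiz1 than in the control libraries, a comparison that shares the Zmiz1 libraries with the falls and is given as levels only. In 17 of the 20 largest falls every Zmiz1 library was above every control library, the exceptions being Syne1, Ly6c1 and Sh3bgrl2. Over all genes tested the share was 8.75%, but the 20 were chosen for high levels in the same Zmiz1 libraries, which favours this pattern. Gzma was at 634.5, 685.8 and 611.4 FPKM in control and at 226.7, 245.8 and 278.6 FPKM in Notch1 libraries, so the Notch1+Zmiz1 libraries lay between control and Zmiz1 levels. Etv5 was at 74.1, 72.5 and 71.9 FPKM and at 33.6, 31.6 and 30.2 FPKM in the same groups, with the same order. Zmiz1 transcript itself was lower in the Notch1+Zmiz1 libraries, as given above, and its part in these falls was not tested. In 12 of the 20 the Notch1+Zmiz1 mean was above the control mean. Without the Zmiz1 vector, 11 of the 20 also fell with the mutant, among them Gzma (-1.36), Etv5 (-1.17), Itm2a (-0.93) and Ccr9 (-0.82). Of the 20, the calls of Dapl1, Ppap2b, Prkaa2 and Actn2 were lost when some single libraries were left out. These were, for Dapl1, control replicate 3 (0.0568), Zmiz1 replicate 1 (0.0853) or 3 (0.093) and Notch1+Zmiz1 replicate 2 (0.143) or 3 (0.138). For Ppap2b they were Notch1+Zmiz1 replicate 1 (0.0828), 2 (0.0825) or 3 (0.0673), and for Prkaa2 Zmiz1 replicate 1 (0.0586) and Notch1+Zmiz1 replicate 2 (0.0855) or 3 (0.0675). For Actn2 they were Zmiz1 replicate 3 (0.0614) and Notch1+Zmiz1 replicate 1 (0.0672) or 3 (0.0512).

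**Figure D4:**
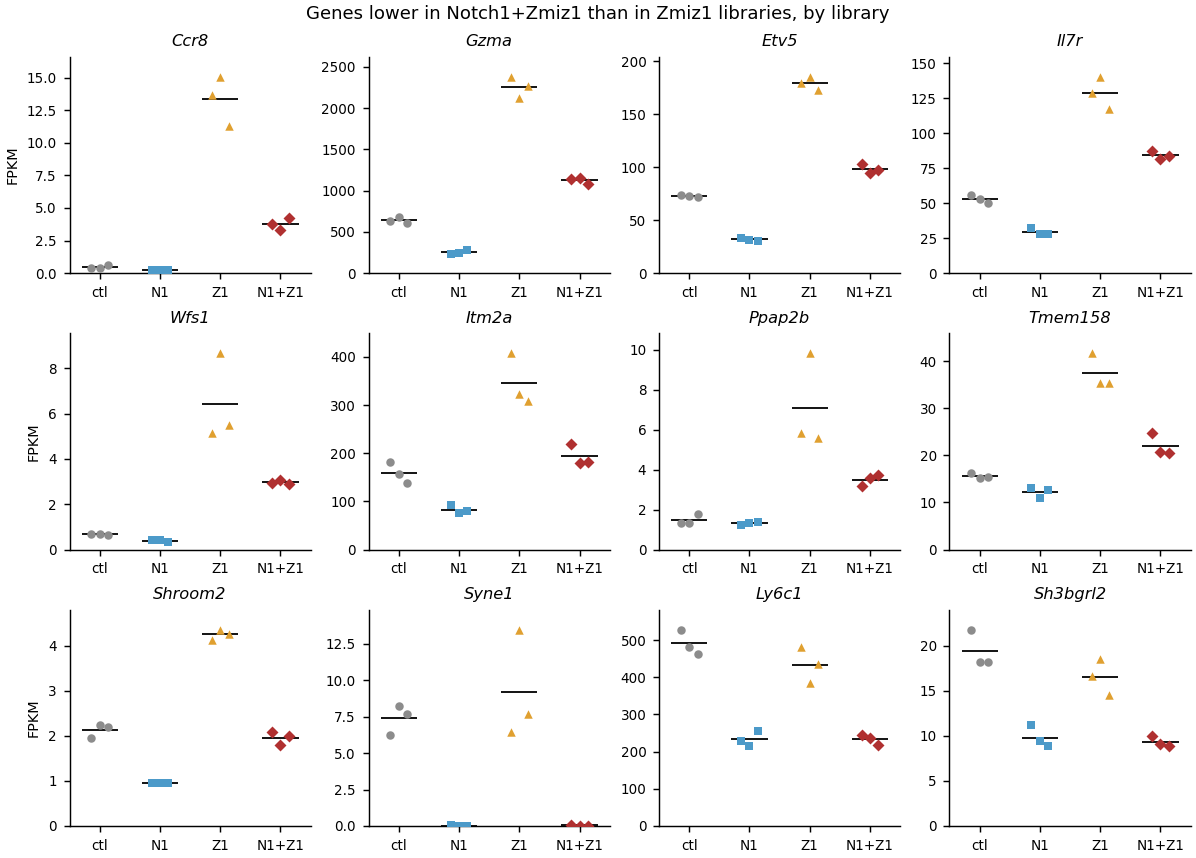
Each panel gives 1 gene's FPKM in every library, with bars at the group means: control (ctl), Notch1 (N1), Zmiz1 (Z1) and Notch1+Zmiz1 (N1+Z1), 3 libraries each, on axes that start at 0. In most panels the Zmiz1 libraries are highest, as for Gzma at 2120 to 2379 FPKM, while in Syne1, Ly6c1 and Sh3bgrl2 the control libraries overlap them or lie above.

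Whether the effect of the mutant itself differed with the Zmiz1 vector was tested as the difference of the effects with and without it. It was called for 7 genes, 0.069% of those tested (2 higher, 0.0197%, and 5 lower, 0.0493%). In limma 332 genes (3.27%) had an unadjusted p under 0.05, and over all genes 50.2% of differences were positive. Myc rose by 2.36 with and by 0.75 without the Zmiz1 vector (difference 1.61, adjusted p = 0.0019). With a pseudocount of 0.1 in place of 1 the Myc difference had an adjusted p of 1. Control libraries held 0.0274 to 0.106 FPKM of Myc. By group means Myc went from 0.465 to 6.51 FPKM with the vector and from 0.072 to 0.807 FPKM without it. The log2(FPKM + 1) scale understates changes under 1 FPKM, as from control to Notch1 libraries. Plac8 fell less with it (-0.40) than without it (-1.37), a difference of 0.98 (adjusted p = 0.00194). It was at 14.8, 15.2 and 14.9 FPKM in Zmiz1 and at 10.9, 11.8 and 10.7 FPKM in Notch1+Zmiz1 libraries, against 25.2, 25.7 and 22.8 FPKM in control and 8.78, 8.29 and 9.52 FPKM in Notch1 libraries. Ccr8 was at 13.7, 15.1 and 11.3 FPKM in Zmiz1 and at 3.8, 3.33 and 4.21 FPKM in Notch1+Zmiz1 libraries, but under 1 FPKM in the other groups (difference -1.33, adjusted p = 0.00735). Its adjusted p was 0.535 with a pseudocount of 0.1 and 0.325 under quantile normalization.

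Glycolysis supplied 3 of the 7. Pgk1, phosphoglycerate kinase, was at 177.9, 158.6 and 168.2 FPKM in Zmiz1 and at 193.4, 202.8 and 184.6 FPKM in Notch1+Zmiz1 libraries, and the change was not called (0.20, limma adjusted p = 0.0935). Without the Zmiz1 vector it went from 175, 177.4 and 165.8 to 373.7, 368.4 and 379.6 FPKM (1.11). The difference of -0.91 had an adjusted p of 0.0019. Aldoa, an aldolase, changed by 0.25 with and by 1.36 without the Zmiz1 vector (difference -1.10, adjusted p = 0.00633), and Tpi1, triosephosphate isomerase, by 0.39 and 1.49 (difference -1.10, adjusted p = 0.0464). The difference for Tpi1 was not called without control replicate 1 (0.207), 2 (0.144) or 3 (0.16), Zmiz1 replicate 1 (0.164) or 3 (0.0987), Notch1 replicate 2 (0.187) or 3 (0.159) or Notch1+Zmiz1 replicate 1 (0.175), 2 (0.0858) or 3 (0.206). It was also not called with the replicate block (0.076), a pseudocount of 0.1 (0.0622), the filter at 5 FPKM (0.0613) or quantile normalization (0.0687).

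Over the 20 tested genes of glycolysis, 1 rose with the Zmiz1 vector, Pgam1 (0.42, limma adjusted p = 0.00312), and 13 rose without it, against 2.67% and 3.19% of all genes tested. The count with it was 2 without Zmiz1 replicate 2 or 3, Notch1 replicate 1 or 3 or Notch1+Zmiz1 replicate 1, and without Zmiz1 replicate 2, 1 gene was called lower. It was 2 with no filter, 4 with the replicate block and 0 with only the groups compared. The median was 0.13 with and 0.49 without the vector, and the difference was negative in 17 of 20 genes. In the fit of all genes 3 differences of the list were called and 12 had an unadjusted p under 0.05, against 3.27% of all genes tested. The difference was also negative in 36 of 39 DNA replication genes and in 32 of 33 mitosis genes, with medians of -0.11 and -0.16, while none of these was called and 2 in each list had an unadjusted p under 0.05.

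**Figure D5:**
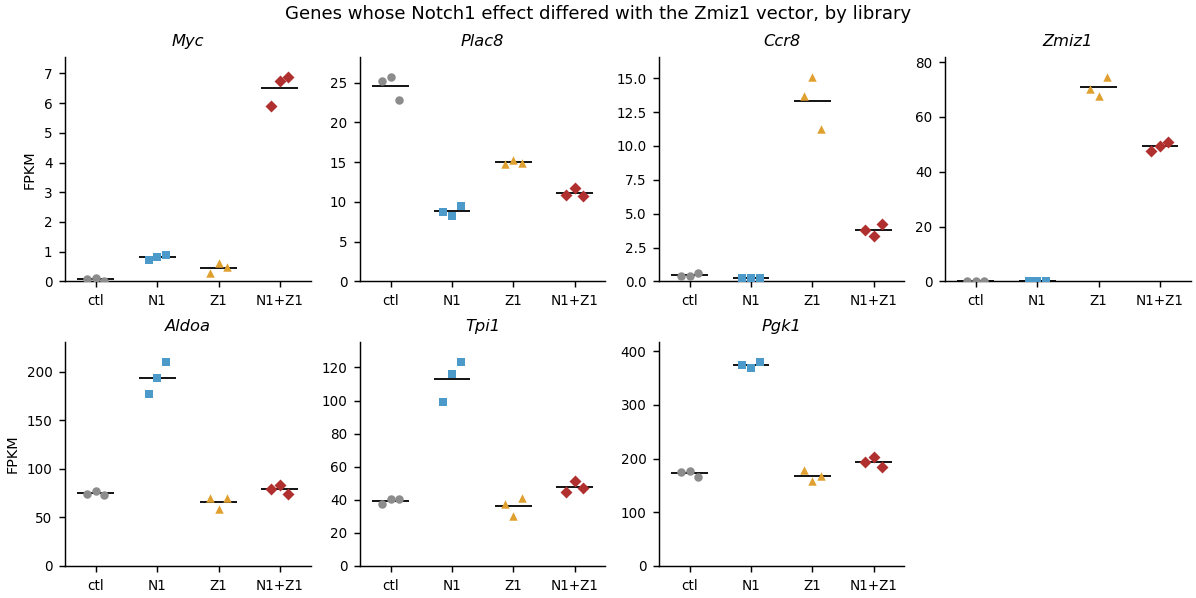
Each panel gives FPKM in every library, with bars at the group means, for the 7 genes whose mutant effect differed with the Zmiz1 vector: control (ctl), Notch1 (N1), Zmiz1 (Z1) and Notch1+Zmiz1 (N1+Z1), 3 libraries each, on axes that start at 0. For Aldoa, Tpi1 and Pgk1 the Notch1 libraries stand above the 3 other groups, and for Myc the Notch1+Zmiz1 libraries do.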

How the data were processed

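The authors deposited FPKM, 1 value per gene symbol and library, per the file headers. Tools named in the submitters' processing notes are TopHat2 2.0.9 with Bowtie2 2.1.0.0, Cufflinks, Cuffdiff 2.1.1 and FastQC 0.10.0, and the build is mm10. Settings, annotation, scaling between libraries and read totals are not given in the sources used here, so no counting interval is printed. Of 23284 symbols, 6449 were at 0 in all 12 libraries. The 10152 with a mean of at least 1 FPKM were tested as log2(FPKM + 1).

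One limma model (version 3.58.1, in R 4.3.3) with an intensity trend held the means of 4 groups of 3 libraries, grouped by title. It tested Notch1+Zmiz1 minus Zmiz1, Notch1 minus control, and the difference between them. Tests were two-sided, p-values were adjusted by Benjamini-Hochberg across the 10152 genes, and a gene is called, or said to rise or fall, under an adjusted p of 0.05. The scripts were tested on simulated data. Relative depth was read off the spacing of low FPKM values in 144 genes.

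Gene lists are described by counts and medians, without a test. The members and lists were chosen with earlier results of these data known. Named genes were 11 genes of the vectors and the Notch pathway, the 20 largest rises and 20 largest falls without overlap (predicted and short noncoding genes passed over), from each list up to 8 called members, by size of change, and up to 3 uncalled ones, by mean FPKM, and up to 10 genes called in the difference. Genes outside this rule are marked where they appear.

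Alternatives were another pseudocount (0.1), other filters (none, or 5 FPKM), 2 scalings (median ratios, quantiles), a block for the replicate number, a fit of the compared groups alone, robust variances, grouping by the cell line label, and leaving out each library. A group left with 2 libraries took its spread from the shared model. Same-numbered libraries did not deviate together throughout, so the numbers were not taken as pairs. Whether the numbers mark a shared batch was not tested. Positions are from GENCODE M21 (GRCm38), matched by symbol, and promoters from the RefSeq table (GRCm38.p6), which held 79.0% of the genes tested. Plots used matplotlib 3.10.9 in Python 3.11.15.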

Additional observations from a re-analysis of the deposited data

Results flagged for a closer look

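The effect of the Notch1 mutant differed with the Zmiz1 vector, by limma's test of the difference, for the 7 genes described above. The differences (effect with minus effect without the vector, log2 scale) were -1.33 for Ccr8, -1.10 for Aldoa, -1.10 for Tpi1, -0.91 for Pgk1, -0.56 for Zmiz1 itself, 0.98 for Plac8 and 1.61 for Myc. Those of Myc and Ccr8 were not called with a pseudocount of 0.1, as given above. The Zmiz1 difference (limma adjusted p = 0.0266) compares the vector-borne transcript, at 47.6 to 51 and 67.7 to 74.4 FPKM, with an endogenous level of 0.17 to 0.221 FPKM. It was lost without control replicate 1 (0.107), 2 (0.113) or 3 (0.122), Zmiz1 replicate 1 (0.0872) or 3 (0.0872), Notch1 replicate 1 (0.0681) or 2 (0.0972), or Notch1+Zmiz1 replicate 1 (0.131), 2 (0.103) or 3 (0.0864). It was also lost with a pseudocount of 0.1 (0.0622), the filter at 5 FPKM (0.105), robust variances (0.0604) and quantile normalization (difference -0.15, adjusted p = 1).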

How the results depend on the processing

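The 392 calls became 721 (480 higher, 241 lower) with the replicate number as a block, where the pairing is by number only. Deviations of same-numbered libraries correlated between -0.176 and 0.267. For differently numbered libraries from different groups the range was -0.233 to 0.198. The 392 calls became 155 (123 higher, 32 lower) with only the 6 libraries compared in the fit. They became 153 (84 higher, 69 lower) with groups taken from the cell line label. Leaving out each library gave 184 to 505 calls. The 7 genes called in the difference became 3 with a pseudocount of 0.1, 18 with no filter, 3 with a filter at a mean of 5 FPKM and 4 under quantile normalization, and 5 to 8 without each library. The 10 synthetase genes became 5 with only the groups compared. The 13 amino acid genes ranged from 8 to 14 without each library. The cause of these moves was not tested, except that fewer libraries enter where libraries are left out. With groups taken from the cell line label only the number of calls was computed. In the other alternatives none of the named values changed direction. Of 103 named genes called, 69 stayed called without each library in turn, and 60 stayed with only the groups compared. Depth is known only in relative terms and limits values near 0 FPKM.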
